A study of Mus musculus with 36 samples.

Results

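PPAR-alpha is a nuclear receptor of the liver that pairs with RXR and, when fatty acids bind it, switches on the genes for burning fat. Described here are 9 genes of this program in mouse liver: Ppara itself, Cpt1a, Acadl and Bdh1, Ehhadh, Cyp4a10 and Cyp4a14, Pdk4 and Fgf21. They were chosen by name, through the gene symbol in the array's annotation. Of the 9, 8 had a probe set that named them alone, among 22180 genes measured in that way. Cyp4a10 was read only by 2 probe sets that each name a further Cyp4a gene, so it has no level of its own here.

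Livers came from C57BL/6 mice of 2 kinds, WT and TB, and were flash frozen. TB mice carried KrasLSL-G12D;p53fl/fl and are labelled as having lung adenocarcinoma, so the liver is not the tissue of the tumour. The labels used here do not say how the alleles were activated, nor the age or sex of the mice, and give no allele for WT beyond the name. All mice lived in equal light and dark phases of 12 h. Collection was at 6 zeitgeber times (ZT, hours from lights on), every 4 h from ZT 0 to ZT 20. Each of the 12 groups had 3 arrays, 36 in all. Levels are log2(intensity + 16), so a difference of 1 is a doubling, and low levels are compressed. Whether each array stands for a separate mouse is not stated, so the spread behind the p-values may be partly technical.

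Fat is burned in several compartments of the hepatocyte. The carnitine shuttle, gated by Cpt1a, carries long-chain fatty acids into mitochondria, where dehydrogenases such as Acadl begin beta-oxidation. The acetyl-CoA that results can be turned into ketone bodies, and Bdh1 makes the last of these, beta-hydroxybutyrate. Ehhadh works in peroxisomal beta-oxidation, and Cyp4a10 and Cyp4a14 are P450 enzymes of omega-oxidation. Pdk4 switches off pyruvate dehydrogenase and so spares glucose, and Fgf21 is a hormone of fasting secreted by the liver. In mice, which feed mostly in the dark, this program is known to vary with feeding and with the clock.

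PPAR-alpha with RXR binds a pair of AGGTCA hexamers in the same direction, 1 base apart, searched on both strands. The 250 bases upstream of the start were available for 7 of the 9 members from the RefSeq promoter table (GRCm38.p6). They are shown for Pdk4, rhythmic past the threshold in TB, Acadl, rhythmic past it in WT, and Fgf21, which has an E-box (CACGTG, the letters bound by clock factors, in capitals) 50 to 45 bases before its start. For Cpt1a a stretch of 30 bases is shown around its match to the hexamer (TGACCT on the printed strand, in capitals), 94 to 89 bases before the start. All read 5′ to 3′ in the direction of the gene.
Pdk4, chr6:5496279-5496528, minus strand: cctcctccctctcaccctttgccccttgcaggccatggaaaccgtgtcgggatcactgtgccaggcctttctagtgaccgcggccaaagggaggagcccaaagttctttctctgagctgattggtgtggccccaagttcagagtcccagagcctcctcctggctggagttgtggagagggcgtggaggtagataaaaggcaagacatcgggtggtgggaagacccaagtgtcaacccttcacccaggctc
Acadl, chr1:66863310-66863559, minus strand: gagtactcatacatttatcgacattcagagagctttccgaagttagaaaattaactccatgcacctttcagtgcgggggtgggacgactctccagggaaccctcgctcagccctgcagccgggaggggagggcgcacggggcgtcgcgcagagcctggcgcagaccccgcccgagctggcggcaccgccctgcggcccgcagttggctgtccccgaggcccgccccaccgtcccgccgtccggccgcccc
Fgf21, chr7:45615491-45615740, minus strand: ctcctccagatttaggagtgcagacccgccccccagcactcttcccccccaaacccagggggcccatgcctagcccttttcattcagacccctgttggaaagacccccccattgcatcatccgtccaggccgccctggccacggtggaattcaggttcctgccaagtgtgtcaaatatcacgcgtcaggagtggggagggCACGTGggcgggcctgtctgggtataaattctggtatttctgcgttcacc
Cpt1a, chr19:3323195-3323224, plus strand: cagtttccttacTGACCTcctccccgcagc
No member's window held the exact 13-base element, which 11 of 32851 promoters (0.0335%) had. The hexamer on either strand, overlaps with the longer element included, was in 14.0% of all promoters. CACGTG was in 6.02% and the D-box TTATGNAA in 3.07%. With up to 3 mismatches the long element was in 21.3% of promoters, and among members in 1 of the 2 start windows of Bdh1 only. These matches are letters in a window and say nothing of binding.

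Of the arrays, 1 stood apart. In WT ZT 12 replicate 3 the mean of 10 skeletal muscle genes was 13.26, against 5.71 to 6.60 in the other 35 arrays, and each of the 10 was higher there than in every other array. Hepatocyte markers were at a mean of 12.53 to 12.71 in all arrays, that one included. Of these markers, Alb (13.47) and Apob (12.66) were lower there than in any other array. Tat (12.92) was above the median of the others (12.79). Among the markers of other cells, Kupffer cell genes lay between 7.11, the value of that same array, and 8.42 in WT and between 7.51 and 8.41 in TB, neutrophil genes between 5.32 and 5.71 and between 5.33 and 5.73, and adipocyte genes between 5.76 and 6.19 and between 5.82 and 6.10. Stellate cell genes lay between 7.60 and 8.17 and between 7.72 and 8.15, and cholangiocyte genes between 5.49 and 6.00 and between 5.53 and 5.93. In the array with muscle genes 3 of 8 stellate cell markers (Col1a1, Col1a2 and Col3a1) and 1 of 5 cholangiocyte markers (Krt7) were also higher than in every other array. The arrays also fell into a set of 24 and a set of 12, which the labels do not name. Each group had 1 array in the smaller set, and among the members Cpt1a differed between the sets (smaller minus larger −0.28, SE 0.066, adjusted p = 0.00168, limma), 1 of 8 members against 30.6% of all genes. In whole liver, fewer cells of a type and less RNA per cell cannot be told apart.

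Time of day gave calls among the members, and genotype gave none. None of the 8 differed between TB and WT, at any ZT or on average, at an adjusted p under 0.05 (limma, Benjamini-Hochberg over 22180 genes). Over all genes 0.176% did so on average, 39 of 22180, 0.00451% at ZT 8 and 0% at each of the other times. At an unadjusted p under 0.05 these were 2449 genes and 1 member on average and 401 to 1641 genes and 0 to 2 members at single times (limma; no other tool was run). A daily rhythm, fitted as a 24 h cosine, passed the same threshold in WT for Ppara, Cpt1a, Acadl and Bdh1, 4 of 8, against 6.45% of all genes, and in TB for Ppara, Cpt1a and Pdk4, 3 of 8, against 4.95%. Cpt1a and Ppara were high around the change from light to dark, and Pdk4 was high around the end of the night. No rhythm differed between the genotypes past the threshold, for a member or for any gene (0%; 1064 genes and 3 members at an unadjusted p under 0.05, limma; no other tool was run).

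**Figure D1:**
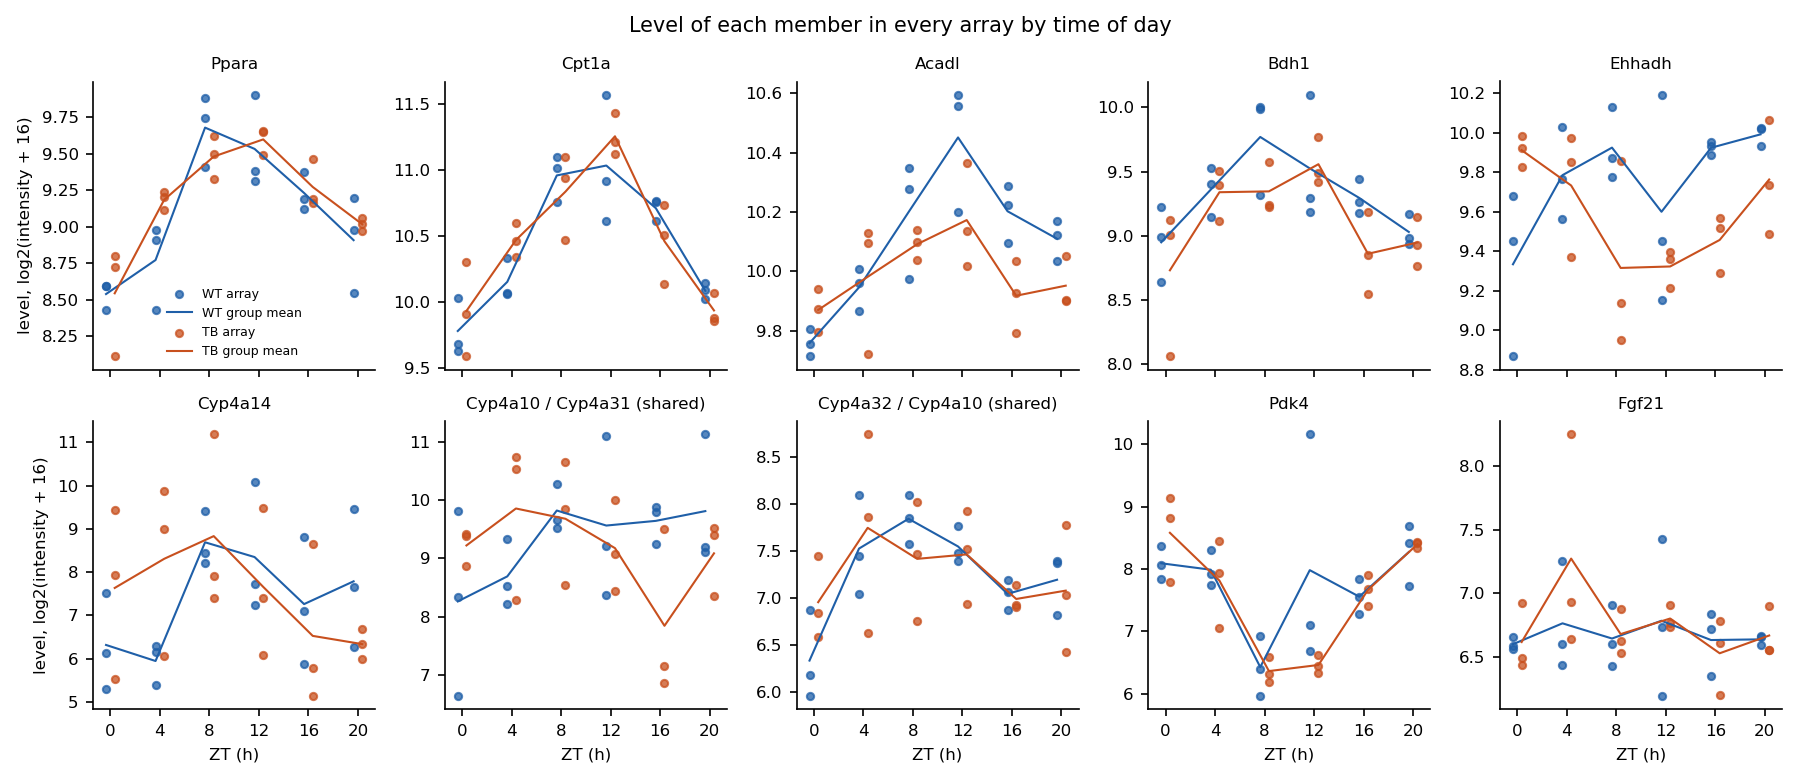
Level of each member, log2(intensity + 16), in each array against ZT in hours, WT in blue and TB in orange, with lines through the group means of 3 arrays; the panels named for a pair of genes are the probe sets shared by Cyp4a10. Ppara, Cpt1a and Acadl rise to ZT 8 or ZT 12 in WT, Pdk4 is lowest at ZT 8, and 1 WT array at ZT 12 lies at 10.16 for Pdk4.

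Ppara, the receptor, rose and fell by about the same amount in WT and TB. In WT its 3 arrays read 8.43, 8.60 and 8.59 at ZT 0, 8.98, 8.43 and 8.91 at ZT 4, 9.74, 9.41 and 9.88 at ZT 8, 9.38, 9.91 and 9.31 at ZT 12, 9.38, 9.13 and 9.19 at ZT 16, and 9.20, 8.98 and 8.55 at ZT 20. In TB they read 8.11, 8.80 and 8.72 at ZT 0, 9.11, 9.21 and 9.24 at ZT 4, 9.50, 9.33 and 9.62 at ZT 8, 9.49, 9.65 and 9.65 at ZT 12, 9.16, 9.46 and 9.19 at ZT 16, and 9.02, 8.97 and 9.06 at ZT 20. In both genotypes every array of the highest time lay above every array of ZT 0, the lowest, by 2.20-fold between group means in WT (ZT 8, 9.68 ± 0.24, SD, n = 3) and 2.07-fold in TB (ZT 12, 9.60 ± 0.09, SD, n = 3). Here and below, highest and lowest times were picked from the same values, so their separation is no test. How many of all genes show such a separation was not computed, nor how many separate TB from WT arrays at a single time. The fitted amplitude, the height of the cosine above its mean, was 0.54 ± 0.078 (SE) in WT with a peak at ZT 11.4, and 0.46 ± 0.078 in TB with a peak at ZT 11.1 (adjusted p = 0.0006 in TB, limma). The genotypes were furthest apart at ZT 4, where all 3 TB arrays lay above all 3 WT arrays (0.41 ± 0.175, unadjusted p = 0.0256, adjusted p = 1.00, limma). Averaged over the day TB minus WT was 0.07 ± 0.072 (adjusted p = 0.754, limma).

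Cpt1a, the gate of the mitochondrion, had the steepest rhythm among the members past the threshold in WT with all arrays. Without the array with muscle genes Pdk4 also passed in WT and was steeper, with an amplitude of 0.90 against 0.73 for Cpt1a. Its WT arrays read 10.03, 9.68 and 9.63 at ZT 0, 10.07, 10.06 and 10.33 at ZT 4, 11.02, 10.76 and 11.10 at ZT 8, 10.92, 11.57 and 10.61 at ZT 12, 10.77, 10.61 and 10.75 at ZT 16, and 10.14, 10.02 and 10.09 at ZT 20. In TB they read 10.30, 9.91 and 9.59 at ZT 0, 10.34, 10.60 and 10.46 at ZT 4, 11.10, 10.47 and 10.94 at ZT 8, 11.43, 11.21 and 11.12 at ZT 12, 10.14, 10.74 and 10.51 at ZT 16, and 10.07, 9.86 and 9.88 at ZT 20. ZT 12 was highest and ZT 0 lowest in TB and WT alike, without overlap between those groups. At ZT 4 all TB arrays (from 10.34) lay above all WT arrays (up to 10.33). The amplitude was 0.66 ± 0.078 in WT, 2.51-fold from trough to peak, and 0.65 ± 0.078 in TB, 2.45-fold, with peaks at ZT 11.5 ± 0.447 and ZT 10.4 ± 0.459 (SE, in h). The difference in rhythm had an unadjusted p of 0.258, and TB minus WT over the day was 0.03 ± 0.079 (adjusted p = 0.931, limma).

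Acadl, which encodes long-chain acyl-CoA dehydrogenase, had a rhythm past the threshold in WT and not in TB. WT arrays read 9.75, 9.71 and 9.81 at ZT 0, 9.87, 9.96 and 10.01 at ZT 4, 10.28, 9.97 and 10.35 at ZT 8, 10.20, 10.60 and 10.56 at ZT 12, 10.22, 10.29 and 10.09 at ZT 16, and 10.04, 10.17 and 10.12 at ZT 20. TB arrays read 9.94, 9.87 and 9.79 at ZT 0, 10.13, 10.09 and 9.72 at ZT 4, 10.10, 10.14 and 10.04 at ZT 8, 10.02, 10.14 and 10.36 at ZT 12, 9.79, 9.93 and 10.04 at ZT 16, and 9.90, 10.05 and 9.90 at ZT 20. At ZT 16 the 3 TB arrays lay below the 3 WT arrays, and at ZT 12 the ranges overlapped. The WT amplitude was 0.29 ± 0.048 with a peak at ZT 12.6 (adjusted p = 0.0003, limma), and the TB amplitude 0.13 ± 0.048 (adjusted p = 0.261, or 0.0451 after quantile normalization). The difference in rhythm had an unadjusted p of 0.0169 and an adjusted p of 0.985 (limma), so a smaller rhythm in TB was not shown. TB minus WT over the day was −0.11 ± 0.048, the member with the smallest p with all arrays (unadjusted p = 0.0249, adjusted p = 0.352, limma), and was −0.28 ± 0.118 at both ZT 12 and ZT 16. Without the array with muscle genes Acadl was at −0.10 ± 0.049 over the day (unadjusted p = 0.0417, adjusted p = 0.374, limma) and −0.22 ± 0.132 at ZT 12. Bdh1 then had the smallest p over the day (−0.22 ± 0.096, unadjusted p = 0.0302, adjusted p = 0.335, limma). Within the groups Acadl was the steadiest member, with an SD of 0.136, against a median of 0.184 over all genes.

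Bdh1, the enzyme of beta-hydroxybutyrate, had its fitted peak in the light phase. WT arrays read 9.22, 8.64 and 8.99 at ZT 0, 9.15, 9.40 and 9.53 at ZT 4, 9.99, 9.32 and 10.00 at ZT 8, 9.29, 10.10 and 9.18 at ZT 12, 9.26, 9.44 and 9.18 at ZT 16, and 9.17, 8.98 and 8.94 at ZT 20. TB arrays read 8.06, 9.13 and 9.01 at ZT 0, 9.40, 9.51 and 9.12 at ZT 4, 9.23, 9.24 and 9.57 at ZT 8, 9.49, 9.77 and 9.42 at ZT 12, 8.55, 9.19 and 8.85 at ZT 16, and 9.14, 8.77 and 8.93 at ZT 20. Amplitudes were nearly equal, 0.38 ± 0.097 in WT (peak at ZT 9.5, adjusted p = 0.0300, limma) and 0.36 ± 0.097 in TB (peak at ZT 9.1, adjusted p = 0.0511), and lie on different sides of the threshold by little. The WT rhythm did not pass after median centring (adjusted p = 0.0596), with a 6-level time factor (0.242) or with all probe sets tested (0.0551, limma). The TB rhythm passed under quantile normalization, without the third of genes lowest in mean, with the array set as a block and with array weights (adjusted p down to 0.0169, limma). Without WT ZT 0 replicate 2, WT ZT 8 replicate 1 or 3, WT ZT 12 replicate 2, or WT ZT 20 replicate 2 or 3, each left out in turn, the WT rhythm no longer passed (adjusted p up to 0.0984, limma), whereas the TB rhythm passed when any 1 of 8 arrays was left out (WT ZT 0 replicate 2, WT ZT 8 replicate 2, WT ZT 12 replicate 1, 2 or 3, TB ZT 0 replicate 2, TB ZT 8 replicate 2 or TB ZT 20 replicate 1, adjusted p down to 0.0361). The difference in rhythm had an unadjusted p of 0.942. TB minus WT was −0.19 ± 0.097 over the day (adjusted p = 0.471, limma).

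**Figure D2:**
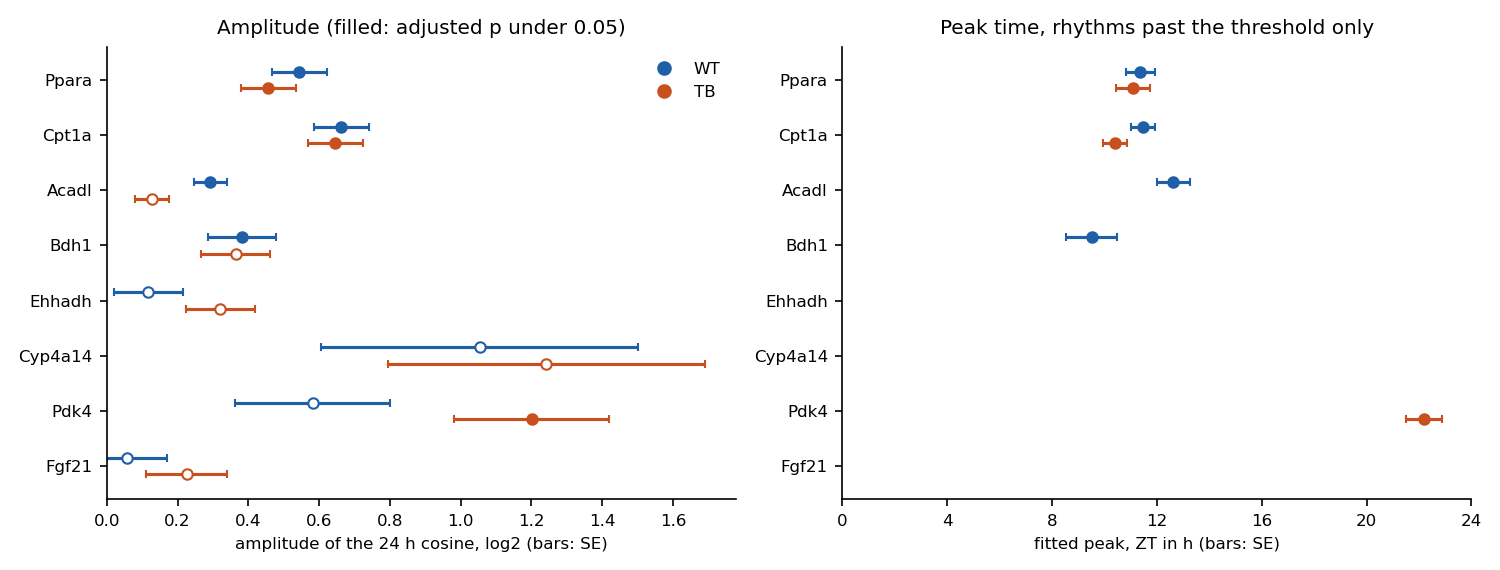
Left, amplitude of the 24 h cosine in log2 for 8 members, WT in blue and TB in orange, with SE bars, filled where the adjusted p was under 0.05. Right, fitted peak in ZT hours with SE bars for the filled ones only; Ppara, Cpt1a, Acadl and Bdh1 lie between ZT 9.5 and ZT 12.6, and Pdk4 at ZT 22.2.

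Pdk4, the kinase that shuts pyruvate dehydrogenase, was lowest at ZT 8 in WT and TB. In WT it read 8.07, 7.84 and 8.37 at ZT 0, 8.30, 7.92 and 7.75 at ZT 4, 6.40, 5.96 and 6.92 at ZT 8, 6.68, 7.10 and 10.16 at ZT 12, 7.28, 7.55 and 7.84 at ZT 16, and 8.41, 8.68 and 7.72 at ZT 20. In TB it read 7.78, 8.82 and 9.13 at ZT 0, 8.45, 7.94 and 7.05 at ZT 4, 6.58, 6.19 and 6.31 at ZT 8, 6.33, 6.44 and 6.61 at ZT 12, 7.68, 7.90 and 7.41 at ZT 16, and 8.42, 8.33 and 8.44 at ZT 20. Group means of TB at ZT 0, the highest time, and ZT 8, the lowest, were 4.65-fold apart, without overlap. At ZT 12 all TB arrays (up to 6.61) lay below all WT arrays (from 6.68). The TB amplitude was 1.20 ± 0.219 with a peak at ZT 22.2 (adjusted p = 0.0015, limma), 5.28-fold from trough to peak.

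The WT value at ZT 12 rests on the array with muscle genes, in which Pdk4 was at 10.16, 9.66-fold above the mean of the other 2 arrays of its group and above the highest of the other 35 arrays (9.13). With that array the WT amplitude was 0.58 ± 0.219 (adjusted p = 0.259), and TB minus WT at ZT 12 was −1.52 ± 0.502 (unadjusted p = 0.0051, adjusted p = 0.559, limma). Without it the WT rhythm passed, at an amplitude of 0.90 ± 0.138 with a peak at ZT 22.2 (adjusted p = 0.000134, limma). TB minus WT without it was −0.43 ± 0.337 at ZT 12 (adjusted p = 0.716) and 0.01 ± 0.125 over the day, against −0.17 ± 0.205 with it (adjusted p = 0.804). The difference in rhythm had an unadjusted p of 0.112 with the array and 0.291 without it. With the array left out 5 of 8 members passed in WT, against 6.22% of all genes, and 1379 genes in all.

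**Figure D3:**
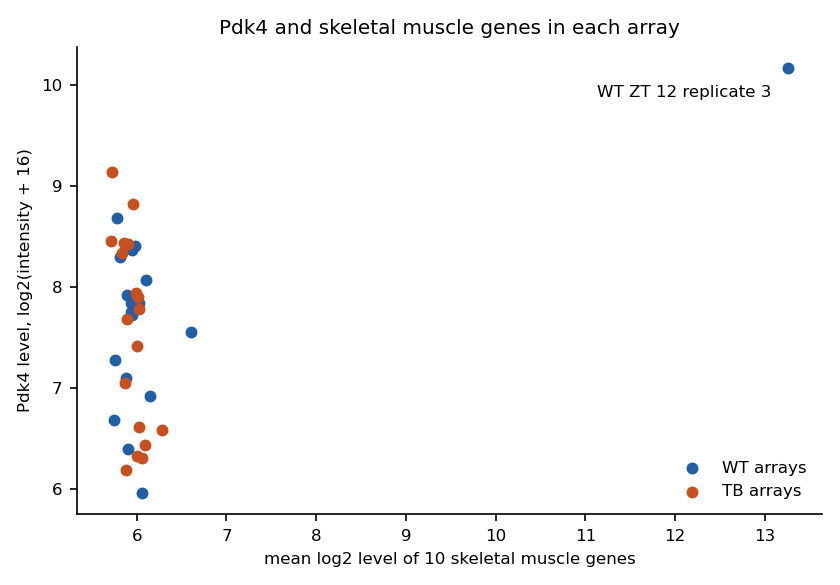
Pdk4 level, log2(intensity + 16), against the mean log2 level of 10 skeletal muscle genes in each of 36 arrays, WT in blue and TB in orange. WT ZT 12 replicate 3 lies alone at 13.26 and 10.16, and the other 35 arrays have muscle means of 5.71 to 6.60 and Pdk4 levels up to 9.13.

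Ehhadh, the bifunctional enzyme of the peroxisome, showed no rhythm past the threshold, and its TB minus WT values had opposite signs at different times without passing the adjusted test. WT arrays read 9.45, 8.87 and 9.68 at ZT 0, 9.56, 10.03 and 9.77 at ZT 4, 9.78, 9.87 and 10.13 at ZT 8, 9.15, 10.19 and 9.45 at ZT 12, 9.95, 9.93 and 9.89 at ZT 16, and 9.93, 10.03 and 10.02 at ZT 20. TB arrays read 9.83, 9.99 and 9.92 at ZT 0, 9.85, 9.98 and 9.37 at ZT 4, 8.95, 9.86 and 9.14 at ZT 8, 9.21, 9.36 and 9.40 at ZT 12, 9.29, 9.52 and 9.57 at ZT 16, and 9.74, 9.49 and 10.06 at ZT 20. All TB arrays lay above all WT arrays at ZT 0 and below them at ZT 16, and the groups overlapped at ZT 8. TB minus WT was 0.58 ± 0.223 at ZT 0, −0.61 ± 0.223 at ZT 8 and −0.47 ± 0.223 at ZT 16, with unadjusted p-values of 0.0146, 0.0104 and 0.0448 (limma). The test that the difference depends on time gave an unadjusted p of 0.0132 but an adjusted p of 1, and 550 genes reached an unadjusted p under 0.05 there with none called (0%, limma; no other tool was run). The fitted peaks were ZT 14.0 in WT (amplitude 0.12 ± 0.098) and ZT 23.4 in TB (0.32 ± 0.098, adjusted p = 0.113, or 0.0392 with array weights, limma).

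**Figure D4:**
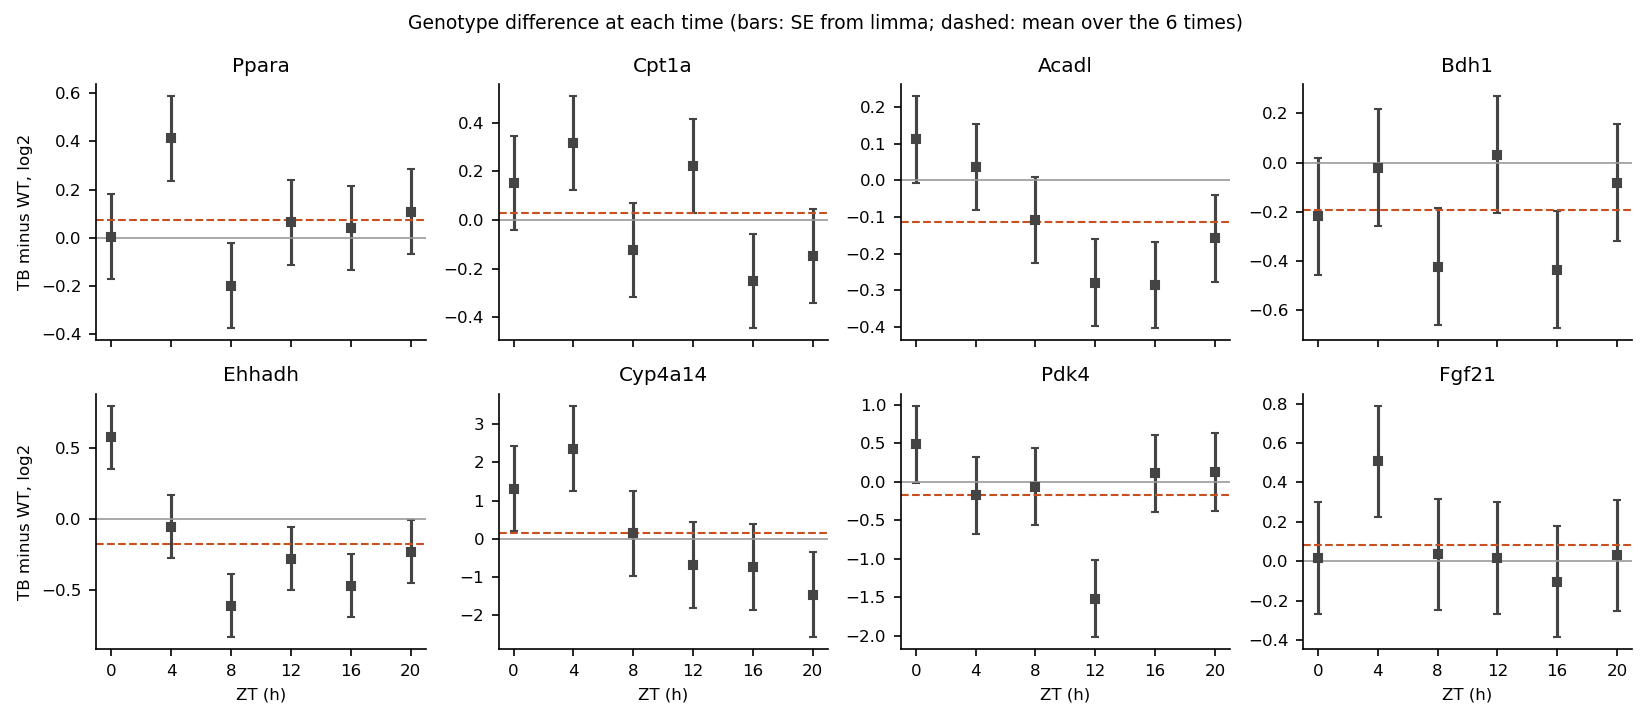
TB minus WT in log2 at each ZT for 8 members, squares with SE bars from limma, and the mean over the 6 times as a dashed line. Ehhadh goes from 0.58 at ZT 0 to −0.61 at ZT 8, the difference of Pdk4 at ZT 12 (−1.52) includes the array with muscle genes, and the panels have their own scales.

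Cyp4a14, a P450 of omega-oxidation, differed more between arrays of the same group than nearly any other gene. Its SD within groups was 1.52, above that of 99.97% of genes, and single arrays lay between 5.14 and 11.19, the lower end of which is compressed by the added 16. WT arrays read 6.13, 5.30 and 7.53 at ZT 0, 5.38, 6.16 and 6.30 at ZT 4, 8.22, 8.44 and 9.42 at ZT 8, 7.73, 10.08 and 7.25 at ZT 12, 8.81, 7.10 and 5.89 at ZT 16, and 6.26, 9.45 and 7.65 at ZT 20. TB arrays read 9.44, 7.93 and 5.54 at ZT 0, 8.99, 9.88 and 6.06 at ZT 4, 11.19, 7.91 and 7.40 at ZT 8, 6.10, 7.40 and 9.48 at ZT 12, 5.14, 8.66 and 5.78 at ZT 16, and 6.35, 5.99 and 6.68 at ZT 20. In WT all arrays at ZT 8, the highest time, lay above all arrays at ZT 4, the lowest, a 6.70-fold difference between means. In TB all arrays at ZT 8, the highest time, lay above all arrays at ZT 20, the lowest, a 5.64-fold difference. These times were picked by their means from the same values, so their separation is no test. TB minus WT was largest at ZT 4 (2.36 ± 1.123, unadjusted p = 0.0440, adjusted p = 1.00, limma), and over the day it was 0.16 ± 0.458 (adjusted p = 0.933). Within the larger array set the mean difference was 0.55 and within the smaller −0.63. Amplitudes were 1.05 ± 0.448 in WT and 1.24 ± 0.448 in TB, with adjusted p-values of 0.376 and 0.232 (limma).

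The 2 probe sets shared by Cyp4a10 were tested among all 41345 probe sets. The one that names Cyp4a10 and Cyp4a31 ranged in WT from 6.65 to 11.13 and in TB from 6.87 to 10.74. In 10 of the 12 groups its highest array was also the highest for Cyp4a14, and in 9 its lowest was. For the other shared probe set these were 5 and 3 groups, for Ehhadh 8 and 9, Cpt1a 8 and 4, Fgf21 8 and 5, Pdk4 7 and 4, and Bdh1 5 and 7. With only 3 arrays in a group, some of these matches arise by chance, and their share over all genes was not computed. Ppara and Acadl were not compared in this way. At ZT 16 the probe set of Cyp4a10 and Cyp4a31 read 9.88, 9.80 and 9.24 in WT and 6.87, 9.50 and 7.17 in TB, groups that overlap (−1.79 ± 0.779, unadjusted p = 0.0290, adjusted p = 1, limma). Over the day TB minus WT was −0.15 ± 0.318 (adjusted p = 0.936). The one that names Cyp4a32 and Cyp4a10 was lowest in WT at ZT 0 (6.33 ± 0.47, SD, n = 3) and highest at ZT 8 (7.84 ± 0.26), without overlap, and its WT amplitude was 0.54 ± 0.168 (adjusted p = 0.170, limma). Its TB minus WT was 0.03 ± 0.161.

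Fgf21, the fasting hormone, had neither a rhythm nor a genotype difference past the threshold. WT arrays read 6.58, 6.57 and 6.65 at ZT 0, 6.60, 6.44 and 7.25 at ZT 4, 6.43, 6.91 and 6.60 at ZT 8, 6.19, 7.43 and 6.73 at ZT 12, 6.83, 6.35 and 6.72 at ZT 16, and 6.66, 6.66 and 6.59 at ZT 20. TB arrays read 6.49, 6.92 and 6.44 at ZT 0, 8.25, 6.93 and 6.64 at ZT 4, 6.88, 6.53 and 6.63 at ZT 8, 6.76, 6.74 and 6.91 at ZT 12, 6.20, 6.78 and 6.61 at ZT 16, and 6.55, 6.56 and 6.90 at ZT 20. Highest was TB at ZT 4 (7.27 ± 0.86, SD, n = 3), with 1 array at 8.25, and the highest and lowest groups overlapped in each genotype. Amplitudes were 0.06 ± 0.114 in WT and 0.23 ± 0.114 in TB (adjusted p = 0.973 and 0.516, limma), and TB minus WT was 0.08 ± 0.115 over the day. Without TB ZT 4 replicate 1, the array at 8.25, the TB amplitude was 0.075 and TB minus WT 0.0025, and in the larger array set the TB amplitude was 0.034.

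Neighbouring times in the order of levels were often not separated. With the pooled SD of the 2 groups as the measure, and apart meaning that the means differ by more than it and no array overlaps, 2 of 5 neighbouring pairs were apart in Ppara in TB, in Cpt1a in TB and in Acadl in WT. It was 1 of 5 in Pdk4 in each genotype and in Cpt1a and Bdh1 in WT, and 0 of 5 in Ppara in WT, in Bdh1 and Acadl in TB, and in Fgf21, Cyp4a14 and Ehhadh in each genotype. The order of Pdk4 in WT includes the array with muscle genes. The share of such pairs over all genes was not computed, so these counts do not set the members apart from other genes.

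Over the 12 group means, which share arrays and time of day, the profile of Ppara correlated with that of Cpt1a at r = 0.933, and Cpt1a with Bdh1 at 0.810 and with Acadl at 0.797. Pdk4 was opposite, at −0.795 with Cpt1a and −0.785 with Ppara, which is a description with no test. Without the array with muscle genes these were −0.903 and −0.883. Among 2967 genes compared, those with a mean of at least 6 and group means spanning at least 0.5 in log2, the profiles most like Ppara were those of Tef (r = 0.952) and Dbp (0.939), clock output factors, and most like Cpt1a were Dbp (0.957) and Tmtc2 (0.950). For Acadl the closest was Hadhb (0.963), the mitochondrial thiolase subunit of the trifunctional protein, followed by Gpc1 (0.919). For Bdh1 they were Hykk (0.942) and Mcm10 (0.934), and for Pdk4 Septin7 (0.935) and Lgalsl (0.934). Pdk4's closest profiles changed when the array with muscle genes was left out and 3094 genes were compared. They were then Arntl (0.985), a core clock factor, and Chka (0.981), with Septin7 at 0.950 and Lgalsl at 0.964. Ehhadh was closest to Cyp3a11 (0.919) and Hamp2 (0.893), Cyp4a14 to Plekhg5 (0.833) and Pla2g12a (0.814), and Fgf21 to H60b (0.813) and Ly6d (0.781).

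The rest of the pathway was read through 10 lists of 137 genes, of which 124 were measured. None of the 124 passed in TB minus WT over the day (22 at an unadjusted p under 0.05, limma; no other tool was run). Of these, 94 were lower and 30 higher in TB by sign alone, with a median of −0.084, while over all genes 46.1% were lower and the median was 0.0073. Without the array with muscle genes 98 were lower, with a median of −0.082. In the larger array set 95 were lower and 10 passed, against 5.19% of all genes. Those 10, known only after their values were seen, were Acadsb, Acad9, Pecr, Cyp4v3, Pdhb, Pdhx, Dld, Fgfr3 and Cyp8b1, lower in TB, and Aqp7, higher. The lean by sign was not the same at all times. With all arrays, 26 of the 124 were higher in TB at ZT 8 and 67 at ZT 20. Of all genes 55% and 47.7% were lower at these times. In WT 24 of the 124, where all genes gave 6.45%, had a rhythm past the threshold, 15 with a peak in the light and 9 in the dark, and in TB 18, 10 and 8, where all genes gave 4.95%. Without the array with muscle genes these were 29 and 21, against 6.22% and 5.23% of all genes.

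Among partners and coregulators of PPAR-alpha, 6 of 16 were rhythmic in WT and 5 in TB, against 6.45% and 4.95% of all genes. Lpin1, a phosphatidate phosphatase that also coactivates PPAR-alpha, had an amplitude of 1.51 ± 0.174 in WT and 1.39 ± 0.174 in TB (peaks at ZT 11.6 and 11.3), and Lpin2 0.87 ± 0.080 and 0.64 ± 0.080 (peak at ZT 11.1 in each). Rxra, the partner receptor, was rhythmic in TB (0.21 ± 0.052, adjusted p = 0.0305, limma) and at an adjusted p of 0.0656 in WT, which was 0.0296 without the array with muscle genes and 0.142 in the larger array set. Ppargc1a, a coactivator, had an amplitude of 0.45 ± 0.130 in WT and 0.18 ± 0.130 in TB and passed in neither.

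In mitochondrial beta-oxidation 2 of 18 genes were rhythmic in WT and 1 in TB, against 6.45% and 4.95% of all genes. The TB count is near that share. By sign over the day 17 of the 18 were lower in TB, against 46.1% of all genes (median −0.10, none past the threshold). Without the array with muscle genes 18 of 18 were lower. At single times with all arrays, none of the 18 was higher in TB at ZT 16 and 11 were at ZT 20. Of all genes 44.4% and 47.7% were lower at these times. Eci2, an enoyl-CoA isomerase, was rhythmic in WT and TB (0.39 ± 0.077 and 0.40 ± 0.077). Acadm, medium-chain acyl-CoA dehydrogenase, was rhythmic in WT (0.21 ± 0.054, adjusted p = 0.0325, limma), though not without the array with muscle genes, and had 0.09 ± 0.054 in TB. Etfb and Acad9 had the smallest p-values for genotype (−0.16 ± 0.045 and −0.21 ± 0.062, adjusted p = 0.147 and 0.176, limma). In the larger array set Acad9 (−0.25, adjusted p = 0.0266) and Acadsb (−0.22, adjusted p = 0.0443, limma) passed. In the carnitine shuttle Crot, which acts on medium-chain acyl groups from peroxisomes, was rhythmic in WT and TB with a peak near ZT 3 (0.49 ± 0.085 and 0.40 ± 0.085), and Slc22a5, the carnitine transporter, in TB (0.39 ± 0.068). For uptake and activation 1 of 12 genes was rhythmic in WT and 2 in TB, against the same shares of all genes.

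In peroxisomal beta-oxidation 3 of 16 genes were rhythmic in WT and 0 in TB, against 6.45% and 4.95% of all genes. In TB 3 reached an unadjusted p under 0.05 (limma). Acot3 and Acot4, acyl-CoA thioesterases, had WT amplitudes of 1.33 ± 0.279 and 0.58 ± 0.109 and TB amplitudes of 0.69 ± 0.279 and 0.20 ± 0.109, and Abcd2, a peroxisomal transporter, 1.21 ± 0.290 and 0.52 ± 0.290. The adjusted p of their difference in rhythm was 0.985 in each (limma). In omega-oxidation 0 of 9 were rhythmic in WT (2 at an unadjusted p under 0.05, limma) and 2 in TB, Cyp4f14 and Cyp4f15. TB minus WT of Cyp4a12a was −0.85 (SE 0.310, adjusted p = 0.275, limma).

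In the ketone body list 3 of 6 were rhythmic in WT and 2 in TB, against 6.45% and 4.95% of all genes. All the rhythmic ones were monocarboxylate transporters. Slc16a1 had amplitudes of 0.35 ± 0.067 in WT and 0.60 ± 0.067 in TB, with peaks at ZT 23.4 and 23.1. Slc16a7 had 0.44 ± 0.091 in WT and 0.09 ± 0.091 in TB. Of the pyruvate dehydrogenase genes 9 of 10 were lower in TB by sign over the day, against 46.1% of all genes (median −0.14, none past the threshold). Dld was nearest to the threshold (−0.21 ± 0.052, adjusted p = 0.0896, limma). In the larger array set Pdhb (−0.28, adjusted p = 0.00897), Dld (−0.26, adjusted p = 0.0106) and Pdhx (−0.27, adjusted p = 0.0177, limma) passed. At single times with all arrays, 5 of the 10 genes were higher in TB at ZT 0, none at ZT 8 and 8 at ZT 20. Of all genes 44.2%, 55% and 47.7% were lower at these times. Pdk2 was rhythmic in WT (0.41 ± 0.070, peak at ZT 11.1), about opposite to Pdk4, and had 0.19 ± 0.070 in TB.

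Among other known targets 5 of 24 were rhythmic in WT and 3 in TB, against 6.45% and 4.95% of all genes. Angptl4, an inhibitor of lipoprotein lipase, had 0.98 ± 0.195 and 1.05 ± 0.195 with peaks at ZT 11.3 and 10.2, and Pnpla2, the lipase that starts triglyceride breakdown, 0.58 ± 0.078 and 0.56 ± 0.078. Cyp8b1, of bile acid synthesis, had a TB minus WT of −0.55 (SE 0.133, adjusted p = 0.0854, limma), and in the larger array set −0.68 (adjusted p = 0.0269, limma). Of the FGF21 list, Fgf1 was rhythmic in WT and TB (0.41 ± 0.065 and 0.32 ± 0.065), and Klb, the co-receptor of FGF21, passed in neither with all arrays (0.29 ± 0.082 and 0.25 ± 0.082). Its WT rhythm passed without the array with muscle genes (adjusted p = 0.0061) and in the larger array set (adjusted p = 0.00146, limma).

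**Figure D5:**
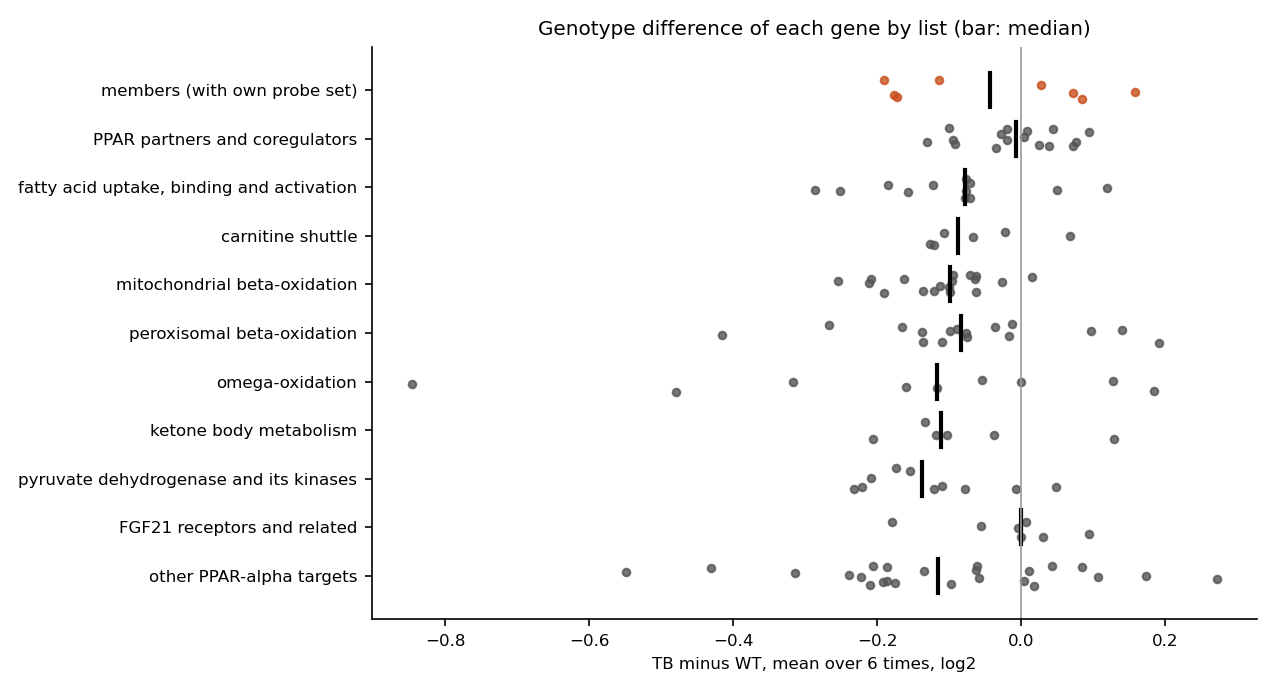
TB minus WT over the day in log2 for each measured gene, 1 row per list, the members in orange and other genes in grey, with black bars at the medians. No point passed an adjusted p of 0.05 with all arrays; the median of the mitochondrial list was −0.10 and that of the pyruvate dehydrogenase list −0.14.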

How the data were processed

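The members, the pathway and marker lists and the settings were chosen with earlier results of these data known. Values are probe set intensities deposited by the authors, with 41345 probe sets on each array. Affymetrix Expression Console 1.1.1 and PLIER 2.0 made them, per the submitters' processing notes. How these were set, and how arrays were normalized, is not given in the sources used here. The median of an array was 36.3 to 43.3 intensity units, and 23.0% of values were under 16. Precision is limited by having 3 arrays per group.

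In the platform annotation 23521 probe sets had 1 symbol, 1814 several and 16010 none. Symbols were updated through the RefSeq gene table of GRCm38.p6 (99.2% matched), and 1 probe set per gene, that with the highest mean, was kept. Values were turned into log2(value + 16) with no filter and no further normalization. The lmFit and eBayes functions of limma 3.58.1 (R 4.3.3) were fitted to all 22180 genes, with 12 group means for the genotype differences and with 24 h cosine and sine terms and a mean for each genotype for rhythms, and were tested on simulated data. Adjusted p-values are Benjamini-Hochberg over all genes, with a threshold of 0.05. Besides the members, genes were named where they had the 2 smallest p-values of their list for genotype, rhythm in WT or difference in rhythm, or stood on a list of genes always named. The profiles most alike had the highest Pearson r over the 12 group means, among genes with a mean of at least 6 and group means spanning at least 0.5 in log2, predicted and unnamed gene models left out. Listed genes with no probe set of their own are not analysed here. WT and TB arrays of 1 ZT and replicate number were compared for pairing: 14 of 18 pairs had r over 0.1 (range −0.052 to 0.413), and the rule for taking numbers as pairs asks this of every pair. Arrays of a pair also shared an array set.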

Additional observations from a re-analysis of the deposited data

How the results depend on the processing

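No member crossed the threshold for genotype under quantile normalization, a pseudocount of 1, median centring, a filter on low genes, the mean of probe sets, array weights, a variance trend, the set or replicate as a block, the larger set, or each array left out. Signs of uncalled differences did change. Cyp4a14 at ZT 16 lay between −0.96 and 0.73 over the settings other than arrays left out. Pdk4 over the day lay between −0.28 and 0.009 with single arrays left out. The members rhythmic in WT went from 4 to 3 after median centring, with a 6-level time factor and with all probe sets tested, and to 5 in the larger set and with array weights. Those in TB went from 3 to 4 without the third of genes lowest in mean, to 5 under quantile normalization and to 5 under array weights (the cause was not tested). Bdh1 also passed in TB with the set as a block. Leaving out each array gave 3 to 5 rhythmic members in WT, 3 to 4 in TB and 0 in every genotype comparison. Bdh1 lay at the threshold: leaving out an array moved its adjusted p in TB between 0.0361 and 0.114. The replicate block, with the number of the titles, left 4 rhythmic members in WT and 3 in TB, and called 38 genes for genotype. The 39 genes called for genotype became 15 with a pseudocount of 1, 59 with 18 pairs as a block, 151 with the set as a block, 626 with array weights and 1151 in the larger set, and 11 to 109 without single arrays. The 1 gene called at ZT 8 became 28 in the larger set, 62 with array weights and 7 without TB ZT 8 replicate 2; 20 were called at ZT 12 without WT ZT 12 replicate 1 and 5 at ZT 0 without TB ZT 0 replicate 2, where none was before. Rhythmic genes in WT went from 1430 to 2251 with array weights and to 597 with a 6-level time factor, and in TB from 1099 to 1660 with the set as a block, 1922 with array weights and 482 with the 6-level factor. The test of all probe sets and the list counts without the array with muscle genes or in the larger set, and the Pdk4 profile without that array, were chosen after seeing the data. Each probe set on its own was not run for members with only 1, nor was the 18-pair block for rhythm within a genotype.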
